A study of Mus musculus with 8 samples.

Results

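The 9 genes described here encode intermediate filament proteins: the simple-epithelial keratins Krt7, Krt8, Krt18 and Krt19, vimentin (Vim), nestin (Nes) and the nuclear lamins Lmna, Lmnb1 and Lmnb2. They were chosen by name from 22987 genes that the expression tables list at 1 locus, and hold 4 of the 52 keratin entries. Earlier results of these data were known at the choice, the keratin levels of EpiSC9 among them. Polyadenylated RNA was sequenced in 8 libraries of mouse pluripotent cells, 4 of embryonic stem cells (mESC) and 4 of epiblast stem cells (mEpiSC). The mESC libraries 1 and 2 came from the line ESF122 and libraries 3 and 4 from ESF175/1, grown in serum replacement with the cytokine LIF. Among the mEpiSC, library 1 came from the line EpiSC5, libraries 2 and 3 from EpiSC7 and library 4 from EpiSC9, grown in serum replacement with the growth factor FGF2. All 5 lines were kept on irradiated mouse embryonic fibroblasts and taken off this feeder layer before RNA extraction. The labels give neither the strain nor the genotype of a line. EpiSC5 and EpiSC9 were each sequenced once, so a line and a library cannot be told apart there, and nothing says whether libraries of 1 line were separate cultures. The p-values below therefore measure the spread between these libraries, which may be technical.

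Intermediate filaments are ropes of coiled-coil proteins that give cells and nuclei mechanical strength. Keratins form obligate pairs of a type II member, such as Krt7 or Krt8, with a type I member, such as Krt18 or Krt19, and the pair Krt8 and Krt18 appears in the first epithelia of the embryo, trophectoderm and extraembryonic endoderm. Vimentin is the filament protein of mesenchymal cells, and nestin that of neural and other progenitors. Lamins line the inside of the nuclear envelope: the B-type lamins Lmnb1 and Lmnb2 are present in nearly all cells, and the A-type lamins, both made from Lmna, are known to be low in early embryonic cells and to rise with differentiation.

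Levels are deposited FPKM, that is, fragment counts divided by transcript length in kilobases and scaled to each library's mapped fragments. FPKM is per length, which allows levels of different genes to be set side by side, except that replicate 4 of both states read long transcripts lower and short ones higher than the other libraries (values below, with Nes). Differences between states are mEpiSC minus mESC on the log2(FPKM + 1) scale, which understates the change of low genes. Adjusted p are Benjamini-Hochberg values from limma over the 11556 genes that reached 1 FPKM in 4 or more libraries, and a difference was called at an adjusted p under 0.05. The libraries held an estimated 24800000 to 38600000 fragments, and all 9 genes had status OK in every library. Krt7 rested on the fewest implied fragments, 32 to 585 per library, and Lmnb1 on 15091 to 21256. Markers of the labelled cell types were in place in part. Zfp42, a naive-state gene, lay at 85.9 to 171.2 FPKM in mESC and at 0.491 FPKM or less in mEpiSC. Fgf5, a primed-state gene, lay at 0.263 to 8.61 FPKM in mESC and 13.5 to 98.2 FPKM in mEpiSC. Otx2, also listed as primed, lay at 8.18 to 27.4 FPKM and 33.0 to 140.3 FPKM. Pou3f1, the remaining gene listed as primed, overlapped between states, at 10.2 to 15.7 FPKM in mESC and 8.25 to 18.3 FPKM in mEpiSC. Its log2 difference was -0.09 (limma adjusted p = 0.79). Pou5f1, shared by both states, ranged from 446.4 to 570.2 FPKM in mESC and from 314.3 to 607.5 FPKM in mEpiSC. In bulk RNA, more cells of a type and more RNA per cell cannot be told apart.

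Most of the cytoplasmic filament genes were called higher in mEpiSC, and of the lamins 1 was called, lower. All 9 genes passed the filter on low values. Krt8, Krt18, Vim and Nes were called higher in mEpiSC, Lmnb2 was called lower, and Krt7, Krt19, Lmna and Lmnb1 did not pass the test. These 4 of 9 genes called higher stand beside 23.1% of all genes tested, and the 1 of 9 called lower beside 14.2%; in either direction 37.3% of all genes tested were called. The median log2 difference of the 9 genes was 0.89, and that of all genes tested was 0.08. The mESC and mEpiSC ranges did not overlap for 5 of 9 genes (Krt8, Krt18, Krt19, Vim and Lmnb2), beside 37.1% of all genes tested. Krt8 and Krt18 lay farthest from that median.

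**Figure D1:**
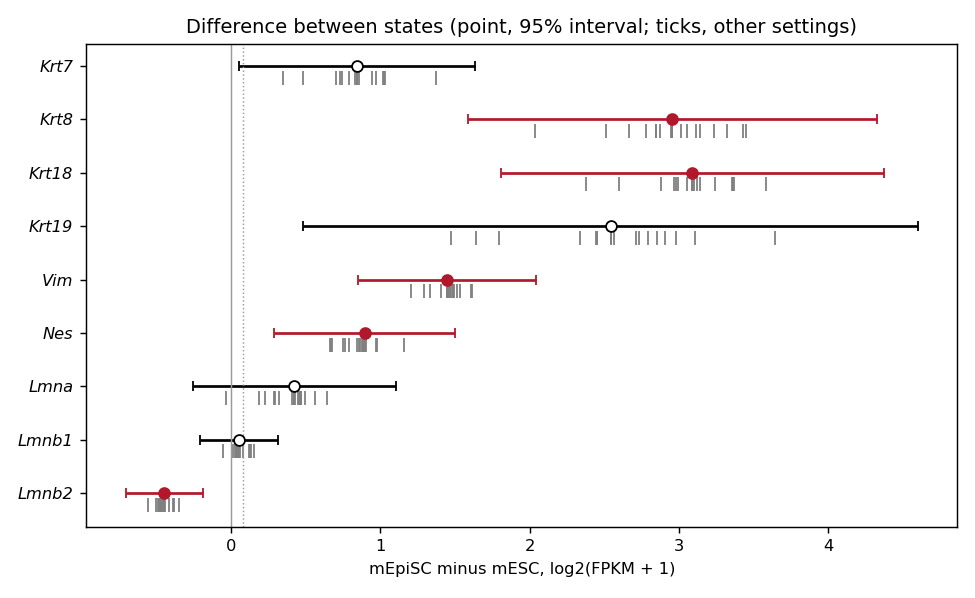
Difference of each gene between mEpiSC and mESC (x axis, log2(FPKM + 1); solid line at no difference, dotted line at the median of all genes tested), with its 95% interval. Filled points passed the test, and grey ticks under each gene are the values under the other settings tried: Krt8 and Krt18 lie near 3, Vim at 1.45, and Lmnb2 is the one gene with a whole interval below 0.

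Krt8 and Krt18, the keratin pair of simple epithelia, had the largest log2(FPKM + 1) differences of the 9 genes over all 8 libraries; that of Krt19 was larger with a fibroblast marker covariate (3.64) and without mEpiSC 1 (2.73, beside 2.51 for Krt8 and 2.60 for Krt18). Krt8 (chr15:101827141-101834773, mm9) was measured at 1.39, 6.42, 0.872 and 3.22 FPKM in mESC 1 to 4 and at 66.3, 8.57, 22.5 and 32.4 FPKM in mEpiSC 1 to 4. The mESC values were low and uneven, EpiSC5 was highest, and the lowest mEpiSC library was 1.34 times the highest mESC library. Mean levels were 2.98 ± 2.51 FPKM (SD, n = 4) and 32.5 ± 24.6 FPKM (SD, n = 4), and the log2 difference was 2.96 (SE 0.61, 95% interval 1.59 to 4.32, limma adjusted p = 0.0055). Krt18 (chr15:101858646-101862457, mm9) was measured at 2.91, 7.96, 2.25 and 4.57 FPKM in mESC 1 to 4 and at 118.0, 14.2, 38.9 and 45.1 FPKM in mEpiSC 1 to 4. Its libraries fell in the same order as those of Krt8 in both states. Mean levels were 4.43 ± 2.55 FPKM (SD, n = 4) and 54.05 ± 44.7 FPKM (SD, n = 4), and the log2 difference was 3.09 (SE 0.57, 95% interval 1.81 to 4.37, limma adjusted p = 0.0033). Both genes were called in all 20 other settings tried. In the reference transcripts (GENCODE, another build than the files) 29.7% of the 50-base windows of Krt8 also occur in the pseudogenes Krt8-ps and Gm36026, so its level carries that uncertainty; for Krt18 the share was 0.72%.

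Libraries of the same line also differed for these 2 keratins. The 2 EpiSC7 libraries stood 2.63-fold apart in Krt8 and 2.75-fold apart in Krt18. The 2 ESF122 libraries stood 4.62-fold apart in Krt8 and 2.74-fold apart in Krt18, with mESC 2 the higher. In ESF175/1 the gaps were 3.69-fold and 2.03-fold, with mESC 4 the higher. EpiSC5 exceeded the next mEpiSC library, EpiSC9, 2.05-fold in Krt8 and 2.62-fold in Krt18. The line differences of the keratins entered the choice of these genes and are given as a description.

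The sequence just before the start of Krt8 and Krt18 is shown because the pair moved together, beside that of Krt7, at the other end of the same keratin cluster, and that of Vim, whose difference was also called. The sequences are from RefSeq (GRCm38.p6, a later build than the mm9 of the expression files), for which 7 of the 9 genes had an entry. Windows of 250 bases before the RefSeq start were searched on both strands for TATAAA (the TATA box), CCAAT (the motif that NF-Y binds), GGGCGG (the GC box) and TGANTCA (an AP-1 type site). Capitals mark the matches, which do not overlap each other; a match on the other strand reads as its reverse complement. Bases that lie downstream of an earlier annotated transcript start are left off for Krt8 and Krt18, for which 110 and 214 of the 250 bases are printed. For Vim an annotated start lies 30 bases before the RefSeq start, and those bases are kept.
Krt8, chr15:102004483-102004592, minus strand: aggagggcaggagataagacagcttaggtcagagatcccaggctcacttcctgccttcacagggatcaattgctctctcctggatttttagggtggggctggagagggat
Krt18, chr15:102027966-102028179, plus strand: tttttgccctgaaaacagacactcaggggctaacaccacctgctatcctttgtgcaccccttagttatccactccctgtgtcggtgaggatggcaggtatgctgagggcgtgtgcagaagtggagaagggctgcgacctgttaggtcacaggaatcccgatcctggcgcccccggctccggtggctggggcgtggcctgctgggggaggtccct
Krt7, chr15:101412153-101412402, plus strand: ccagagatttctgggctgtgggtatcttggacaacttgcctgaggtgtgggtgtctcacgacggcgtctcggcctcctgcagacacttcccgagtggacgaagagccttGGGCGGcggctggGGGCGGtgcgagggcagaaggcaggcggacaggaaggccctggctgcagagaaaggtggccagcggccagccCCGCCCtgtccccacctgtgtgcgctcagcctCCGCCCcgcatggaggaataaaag
Vim, chr2:13574061-13574310, plus strand: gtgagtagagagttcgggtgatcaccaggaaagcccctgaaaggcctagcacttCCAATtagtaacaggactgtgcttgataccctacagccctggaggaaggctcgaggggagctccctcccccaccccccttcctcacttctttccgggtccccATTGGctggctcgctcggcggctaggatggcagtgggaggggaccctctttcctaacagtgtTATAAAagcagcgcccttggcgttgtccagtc
In the whole 250-base windows of Krt8 and Krt18 none of the 4 motifs was found. Krt7 had 4 GGGCGG matches, at -141 and -128 on the plus strand and at -56 and -24 on the minus strand. Vim had a TATAAA match at -32, which spans that earlier start, and CCAAT matches at -196 and, on the minus strand, at -94. Of 32851 RefSeq windows of that length, 12.4% held TATAAA, 33.8% CCAAT, 32.7% GGGCGG and 6.75% TGANTCA. The Krt8 window held 3 CG dinucleotides, that of Krt18 held 12, that of Krt7 held 16 and that of Vim held 8, beside a median of 6 over all windows. The windows of the keratin pair that moved together thus differed in CG content, and shared no match to these motifs.

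Krt19, a type I keratin that can replace Krt18 as the partner of Krt8, was set apart by 1 library. Krt19 (chr11:100002125-100007233, mm9) was measured at 1.64, 2.40, 1.67 and 3.59 FPKM in mESC 1 to 4 and at 11.7, 4.77, 8.89 and 173.6 FPKM in mEpiSC 1 to 4. The groups did not overlap, but EpiSC9 was 14.9-fold above EpiSC5, the next library, and 36.4-fold above the lowest mEpiSC library. The deposited 95% interval of the EpiSC9 value, which covers counting error only, was 170.6 to 176.5 FPKM. The mean was 2.32 ± 0.914 FPKM (SD, n = 4) in mESC and 49.7 ± 82.6 FPKM (SD, n = 4) in mEpiSC, an SD larger than the mean. The log2 difference was 2.54 (SE 0.91, 95% interval 0.48 to 4.6, limma adjusted p = 0.054). Without the EpiSC9 library it was smaller and passed the test, at 1.47 (limma adjusted p = 0.0064), and without mEpiSC 2 it was 3.11 (limma adjusted p = 0.035). In the fit blocked by replicate number it kept its size and passed the test (limma adjusted p = 0.027).

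Krt7, a type II keratin of ducts and other simple epithelia, stayed at the edge of detection in most libraries. Krt7 (chr15:101242833-101258237, mm9) was measured at 0.684, 0.734, 0.417 and 1.26 FPKM in mESC 1 to 4 and at 5.69, 1.20, 1.15 and 2.08 FPKM in mEpiSC 1 to 4. EpiSC5 was again highest, and both EpiSC7 libraries lay below mESC 4. The means were 0.774 ± 0.353 FPKM (SD, n = 4) and 2.53 ± 2.15 FPKM (SD, n = 4), and the log2 difference of 0.85 (SE 0.35, 95% interval 0.05 to 1.64, limma adjusted p = 0.087) did not pass the test. It had to reach 1 FPKM in 4 libraries to be tested, and 4 of the 5 libraries that did were mEpiSC.

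**Figure D2:**
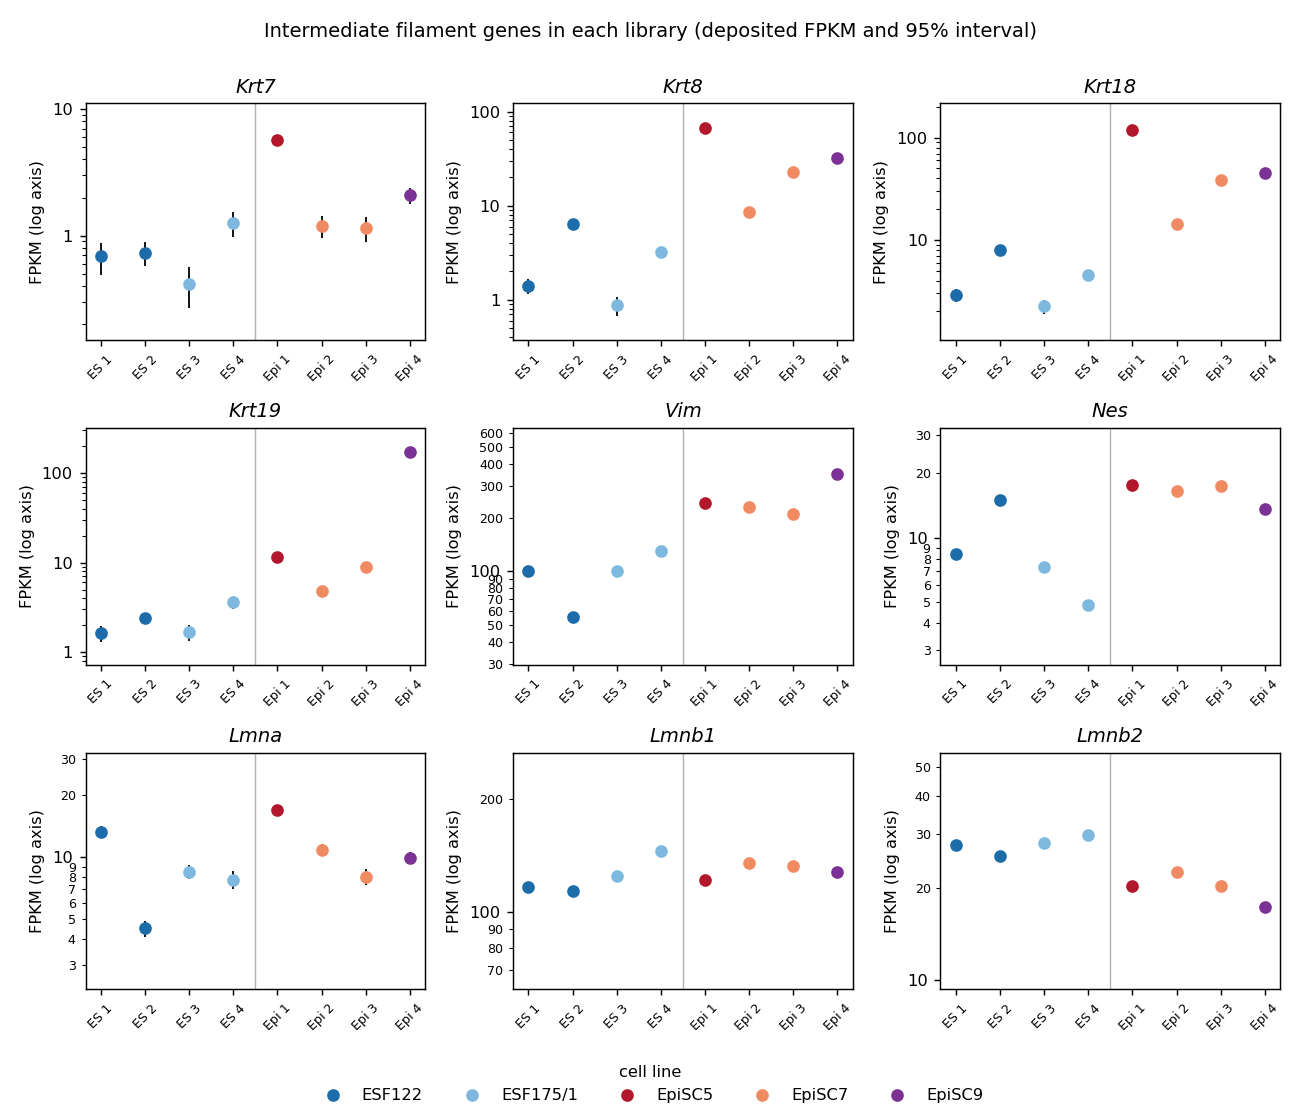
Level of each of the 9 genes in every library (points, deposited FPKM on a log axis that differs between panels; bars, the deposited 95% interval; ES, mESC; Epi, mEpiSC), coloured by cell line. Krt8, Krt18, Krt19, Vim and Lmnb2 have groups that do not overlap, and Krt19 in EpiSC9 stands at 173.6 FPKM above mEpiSC values of 4.77 to 11.7 FPKM.

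These 4 keratins were the only ones of the series at 5 FPKM or more in any library. They were chosen with earlier results of these data known, so this is a description. The tables held 52 keratin entries, and of the 48 others only Krt10, Krt17 and Krt42 reached 1 FPKM in any library and none reached 5 FPKM. From Krt7 to Krt18 on chromosome 15 lie 24 keratin entries, and Krt7, Krt8 and Krt18 were the 3 of them at 5 FPKM or more in any library. Chromosome 11 holds 27, and Krt19 was the 1 at that level. Krt8 and Krt18 are neighbours, 23.9 kb apart with no entry between them, although the type II and type I genes otherwise sit on different chromosomes. Krt7 lies 568.9 kb from Krt8. Genes next to these keratins had other levels: Krt78, next to Krt8, stayed at 0.0411 FPKM or less, Eif4b, a translation factor beyond Krt18, ranged from 131.4 to 176.0 FPKM over all libraries, and Krt15, beside Krt19, reached 0.256 FPKM in EpiSC9 and less elsewhere.

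Of 26 other keratins listed for comparison, mostly those of skin, hair and stratified epithelia, 0 passed the filter on low values. Krt42 was measured at 1.10, 0.648, 1.49 and 3.77 FPKM in mESC 1 to 4 and at 0.384, 0.201, 0.0471 and 0.161 FPKM in mEpiSC 1 to 4. Krt17, a keratin of stratified epithelia, was measured at 0.905, 0.526, 0.783 and 1.04 FPKM in mESC 1 to 4 and at 0.192, 0.185, 0.152 and 0.118 FPKM in mEpiSC 1 to 4. For both the mESC libraries lay above all mEpiSC libraries, the opposite direction to Krt8 and Krt18. Krt10 went in the same direction as that pair, from 0.51 to 0.80 FPKM in mESC to 0.97 to 1.27 FPKM in mEpiSC, without overlap. When the filter was dropped, 23 of the 26 could be fitted. Limma then called 0 higher and 4 lower in mEpiSC, namely Krt12, Krt17, Krt23 and Krt42. In that setting 3285 of all 19479 genes were called higher and 2204 lower. Krt12 and Krt23 stayed at 0.261 FPKM or less in every library. Krt10 had a log2 difference of 0.31 there and did not pass the test (limma adjusted p = 0.058).

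Markers of other cell types also varied between libraries, in part in the order of the keratins. EpiSC5, the library highest in Krt7, Krt8 and Krt18, also had the highest summed level of 12 endoderm markers, 131.0 FPKM beside 17.2 to 43.0 FPKM in the other mEpiSC libraries and 3.48 to 7.23 FPKM in mESC. Among mEpiSC it was the highest library for 9 of the 9 markers that reached 1 FPKM anywhere. Among these, Cubn and Amn reached 1 FPKM in mESC 4 alone (1.27 and 2.03 FPKM) and stood at 0.22 and 0.58 FPKM in EpiSC5. Afp and Ttr stayed at 0.134 FPKM or less in all libraries. Gata4 stood at 18.9 FPKM there and at 1.20 FPKM or less elsewhere, and Gata6 at 26.4 FPKM beside 4.41 FPKM or less. EpiSC9, the library highest in Krt19, was highest for 6 of 8 mesoderm markers, with a summed level over 9 listed genes of 59.4 FPKM beside 22.8 to 50.6 FPKM in the other mEpiSC libraries and 2.89 to 39.9 FPKM in mESC. Meox1, a somite gene, stood at 15.7 FPKM in EpiSC9 and at 0.356 FPKM or less elsewhere, and Mesp1, an early mesoderm gene, at 7.69 FPKM beside 0.128 FPKM or less. The 8 neural markers also summed highest in EpiSC9, to 36.8 FPKM beside 9.89 to 31.7 FPKM in the other mEpiSC libraries. Among mEpiSC, EpiSC9 was the highest library for 1 of the 5 neural markers that reached 1 FPKM anywhere. In mESC, library 2 was highest in Krt8 and Krt18 and also in T, the primitive streak gene Brachyury, at 38.8 FPKM beside 1.95 to 2.94 FPKM in the other mESC libraries. The orders did not match throughout. EpiSC9 had the lowest endoderm marker sum of the mEpiSC but the second highest Krt8 and Krt18, and mEpiSC 2 had the highest T of the mEpiSC, at 46.8 FPKM, and the lowest Krt8 and Krt18. The part of these markers in the keratin levels was not tested.

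Summed levels of 10 trophoblast markers were 16.4 to 19.3 FPKM in mESC and 4.52 to 10.7 FPKM in mEpiSC, the opposite direction to the keratins, and Tfap2c made up most of the sum in mESC. The placental markers Tpbpa and Prl3d1 were at 0 in all libraries. Gata3, also a trophoblast marker, reached 4.84 FPKM in EpiSC5 and 0.598 FPKM or less elsewhere. Of the surface ectoderm list, Grhl3 and Isl1 reached 1 FPKM, and Isl1 was at 3.16 FPKM in EpiSC9 beside 0.966 FPKM or less elsewhere. Grhl3, the 1 gene of this list that was tested, was lower in mEpiSC. It lay at 4.40 to 8.46 FPKM in mESC and at 0.687 to 1.55 FPKM in mEpiSC (log2 difference -1.83, limma adjusted p = 0.00038). The list also holds Krt5 and Krt14, which stayed below 1 FPKM. Fibroblast markers, 15 genes that the feeder cells express, summed to 305.3, 41.5, 57.9 and 6.65 FPKM in mESC 1 to 4 and to 565.5, 307.0, 183.1 and 69.2 FPKM in mEpiSC 1 to 4. Of these, 3 of 13 tested markers were called higher in mEpiSC by limma, 13 of 13 with the replicate block and 10 of 13 without mESC 1. Among all genes, 2665 of 11556 were called higher, 3150 of 11556 with the block and 2066 of 11247 without mESC 1. With the mean level of these markers as a covariate, the log2 differences were 3.14 for Krt8, 3.09 for Krt18 and 3.64 for Krt19, beside 2.96, 3.09 and 2.54 without it (limma adjusted p = 0.021, 0.018 and 0.03 with the covariate).

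**Figure D3:**
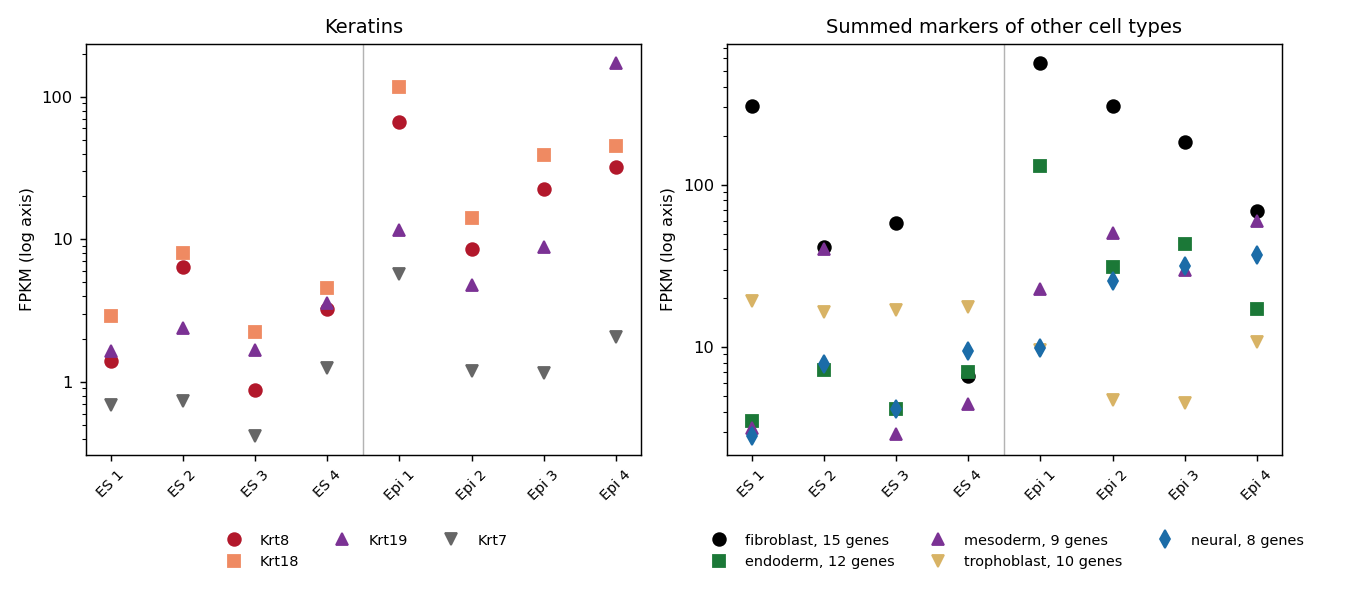
Left, level of the 4 keratins in each library (deposited FPKM, log axis); right, summed FPKM of marker lists of other cell types (log axis; ES, mESC; Epi, mEpiSC). Krt8 and Krt18 are highest in mEpiSC 1 (EpiSC5), where endoderm markers sum to 131.0 FPKM, and Krt19 is highest in mEpiSC 4 (EpiSC9), where mesoderm markers sum to 59.4 FPKM.

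Within the keratin pairs, Krt8 kept a similar proportion to Krt18 while both varied widely. The ratio of Krt8 to Krt18 FPKM was 0.478, 0.807, 0.387 and 0.704 in mESC 1 to 4 and 0.562, 0.605, 0.579 and 0.719 in mEpiSC 1 to 4, so the mEpiSC ratios lay inside the mESC range. Krt19 made up 36.0%, 23.2%, 42.6% and 44.0% of type I keratin FPKM in mESC 1 to 4 and 9.0%, 25.2%, 18.6% and 79.4% in mEpiSC 1 to 4. Krt18 was thus the main type I keratin in 7 of 8 libraries, and Krt19 in EpiSC9. The ratio of type II to type I keratin FPKM was 0.328 to 0.691 in mESC and 0.496 to 0.555 in EpiSC5 and EpiSC7, but 0.158 in EpiSC9, where type I FPKM summed to 218.7 and type II FPKM to 34.5. No library had more type II than type I keratin FPKM. All 4 keratins summed to 6.62, 17.5, 5.21 and 12.6 FPKM in mESC 1 to 4 and to 201.7, 28.7, 71.5 and 253.2 FPKM in mEpiSC 1 to 4.

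Vimentin was abundant in both states and higher in mEpiSC. Vim (chr2:13495937-13504453, mm9) was measured at 99.7, 55.2, 100.9 and 130.1 FPKM in mESC 1 to 4 and at 242.5, 229.9, 210.3 and 349.7 FPKM in mEpiSC 1 to 4. The groups did not overlap, mESC 2 was lowest and EpiSC9 highest. Mean levels were 96.5 ± 30.9 FPKM (SD, n = 4) and 258.1 ± 62.5 FPKM (SD, n = 4), and the log2 difference was 1.45 (SE 0.26, 95% interval 0.85 to 2.04, limma adjusted p = 0.0032), called in all 20 other settings. Fibroblasts, too, express Vim strongly. EpiSC9 had the highest Vim and the lowest fibroblast marker sum of the mEpiSC, and mESC 4 the highest Vim and the lowest marker sum of the mESC. Other libraries went the other way. EpiSC5 had the highest marker sum of the mEpiSC (565.5 FPKM) and the second highest Vim. Of the mESC, mESC 2 had the second lowest marker sum (41.5 FPKM) and the lowest Vim. With the marker covariate the log2 difference was 1.61 (limma adjusted p = 0.0098), and the part of feeder RNA in the Vim levels was not tested. Vim exceeded the summed keratins in every library, by 3.15 to 19.4 times in mESC and by 1.20 to 8.0 times in mEpiSC, and least in EpiSC5 and EpiSC9.

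Nestin was moderately higher in mEpiSC, with overlapping groups. Nes (chr3:87775014-87784373, mm9) was measured at 8.45, 14.9, 7.34 and 4.86 FPKM in mESC 1 to 4 and at 17.6, 16.5, 17.4 and 13.7 FPKM in mEpiSC 1 to 4. The mEpiSC libraries lay close together, and mESC 2 reached above EpiSC9. The means were 8.90 ± 4.30 FPKM (SD, n = 4) and 16.3 ± 1.82 FPKM (SD, n = 4), and the log2 difference was 0.89 (SE 0.27, 95% interval 0.29 to 1.50, limma adjusted p = 0.029). The call was lost in 9 of 20 other settings. It was lost without mESC 1, 3 or 4 (limma adjusted p = 0.062, 0.078 and 0.053) and without mEpiSC 1, 2 or 3 (limma adjusted p = 0.066, 0.066 and 0.073). It was also lost when the line entered as a random block (limma adjusted p = 0.08), with 1 mean per line (limma adjusted p = 0.10) and with the fibroblast marker covariate, where the log2 difference was 0.67 (limma adjusted p = 0.16).

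Replicate 4 was the lowest library for Nes in both states, and long transcripts were low in both of these libraries. Each library was set against the mean of the other libraries of its state. For 560 tested genes with a longest coding transcript over 8 kb, the median log2 difference was -0.35 in mESC 4 and -0.42 in mEpiSC 4. For 2491 genes of at most 2 kb it was 0.29 and 0.37. In the other 6 libraries, for which that mean included replicate 4, these medians were 0.04 to 0.24 for the long and -0.22 to -0.02 for the short transcripts. The longest coding transcript of Nes has 6126 bases, the longest of the 9 genes, and those of Krt18 and Krt19 have 1437 and 1576 bases. With replicates 1 to 3 alone, the log2 difference of Nes was 0.75 (limma adjusted p = 0.039) and that of Krt19 was 1.64 (limma adjusted p = 0.0056).

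Among the lamins, B-type transcripts predominated in all libraries and only Lmnb2 passed the test. Lmnb1 (chr18:56867466-56913079, mm9) was measured at 116.6, 113.6, 124.2 and 145.0 FPKM in mESC 1 to 4 and at 121.8, 135.2, 132.2 and 127.4 FPKM in mEpiSC 1 to 4. The mEpiSC range lay inside the mESC range. Mean levels were 124.8 ± 14.2 FPKM (SD, n = 4) and 129.1 ± 5.83 FPKM (SD, n = 4), and the log2 difference was 0.05 (SE 0.12, 95% interval -0.21 to 0.31, limma adjusted p = 0.75). Its sign turned under median ratio scaling, at -0.06.

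Lmnb2 (chr10:80364107-80380990, mm9) was measured at 27.8, 25.5, 28.1 and 29.9 FPKM in mESC 1 to 4 and at 20.4, 22.7, 20.3 and 17.4 FPKM in mEpiSC 1 to 4. Every mESC library lay above every mEpiSC library, and EpiSC9 was lowest. The means were 27.8 ± 1.83 FPKM (SD, n = 4) and 20.2 ± 2.16 FPKM (SD, n = 4), and the log2 difference was -0.45 (SE 0.11, 95% interval -0.71 to -0.19, limma adjusted p = 0.014). It was called in 19 of 20 other settings and lost with 1 mean per line (-0.48, limma adjusted p = 0.11).

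Lmna, the gene of the A-type lamins (chr3:88285070-88307254, mm9), was measured at 13.3, 4.51, 8.50 and 7.76 FPKM in mESC 1 to 4 and at 17.0, 10.9, 8.05 and 9.92 FPKM in mEpiSC 1 to 4. The groups overlapped, and the highest library of each state, mESC 1 and EpiSC5, was also the highest of its state in fibroblast marker sum (305.3 and 565.5 FPKM). The rest of the order did not match. The libraries with the lowest marker sums, mESC 4 (6.65 FPKM) and EpiSC9 (69.2 FPKM), lay above mESC 2 (41.5 FPKM) and mEpiSC 3 (183.1 FPKM) in Lmna. Mean levels were 8.51 ± 3.61 FPKM (SD, n = 4) and 11.5 ± 3.85 FPKM (SD, n = 4), and the log2 difference of 0.42 (SE 0.30, 95% interval -0.26 to 1.10, limma adjusted p = 0.30) did not pass the test. With the fibroblast marker covariate it was -0.03 (limma adjusted p = 0.95). The part of feeder RNA in the Lmna levels was not tested. Lmna made up 8.41%, 3.14%, 5.28% and 4.25% of lamin FPKM in mESC 1 to 4 and 10.7%, 6.45%, 5.02% and 6.41% in mEpiSC 1 to 4. Lmnb2 made up 16.4% to 17.7% in mESC and 11.2% to 13.4% in mEpiSC. The 3 lamins together summed to 143.5 to 182.7 FPKM in mESC and 154.7 to 168.7 FPKM in mEpiSC, so the total overlapped between states while the Lmnb2 share did not.

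**Figure D4:**
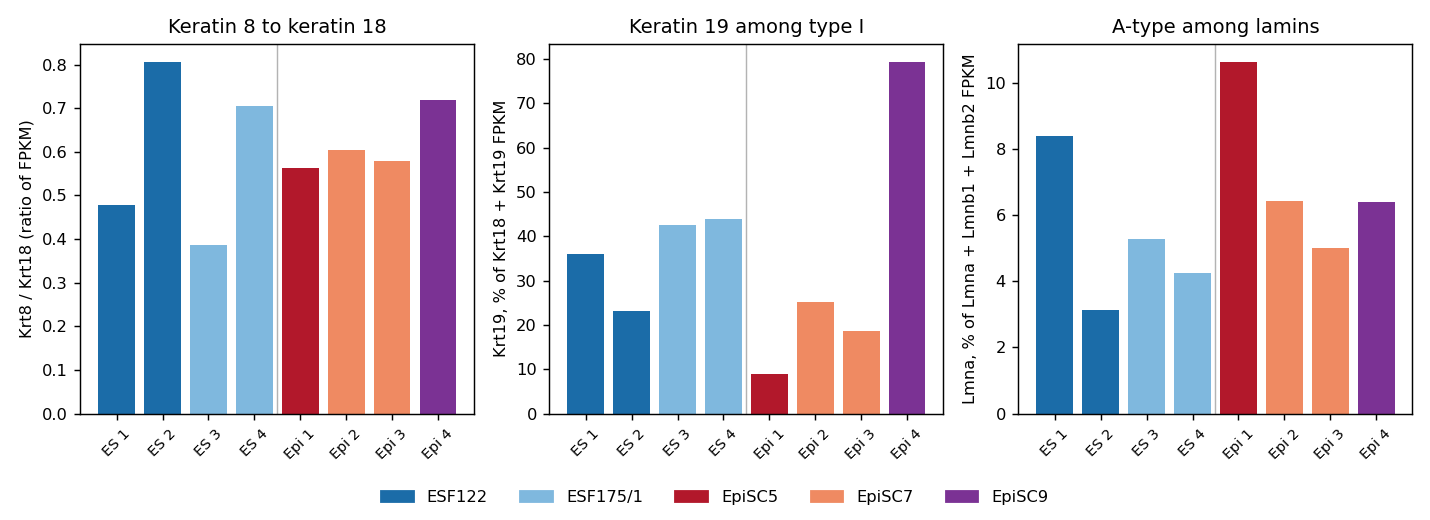
Proportions within the filament families in each library (bars, coloured by cell line; ES, mESC; Epi, mEpiSC): Krt8 to Krt18 FPKM, Krt19 as a percentage of Krt18 plus Krt19, and Lmna as a percentage of the 3 lamins. Krt19 makes up 79.4% of type I FPKM in EpiSC9 and 9.0% in EpiSC5, and Lmna stays between 3.14% and 10.7% of lamin FPKM.

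Ordered by mean level, mESC had Lmnb1, Vim, Lmnb2, Nes, Lmna, Krt18, Krt8, Krt19 and Krt7, from 124.8 FPKM to 0.774 FPKM. The ranges of neighbours in this order overlapped except between Vim and Lmnb2, between Lmnb2 and Nes and between Krt19 and Krt7. In mEpiSC the order was Vim, Lmnb1, Krt18, Krt19, Krt8, Lmnb2, Nes, Lmna and Krt7, from 258.1 FPKM to 2.53 FPKM. There the ranges separated Vim from Lmnb1, Lmnb1 from Krt18 and Lmna from Krt7. Vim exceeded Lmnb1 in all 4 mEpiSC libraries and lay below it in all 4 mESC libraries.

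Differences between lines within a state were tested for the 5 genes other than keratins. An F test over EpiSC5, EpiSC7 and EpiSC9 called none of Vim, Nes, Lmna, Lmnb1 and Lmnb2 (limma adjusted p = 0.43 to 0.87, and 0 with an unadjusted p under 0.05), beside 2.6% of all genes tested. Between ESF175/1 and ESF122 none was called either, beside 0.762% of all genes tested, and Nes had an unadjusted p under 0.05. Its log2 difference, ESF175/1 minus ESF122, was -0.81 (limma adjusted p = 0.26). The spread in these fits comes from the lines with 2 libraries, and EpiSC5 and EpiSC9 were assumed to vary like them. For the keratins the same fit gave, as a description, EpiSC9 minus EpiSC5 at 3.78 for Krt19 and EpiSC7 minus EpiSC5 at -2.17 for Krt8, -2.27 for Krt18 and -1.62 for Krt7.

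Other intermediate filament genes were called in both directions. Of 7 of 10 listed genes that were tested, 1 was called higher and 3 lower in mEpiSC, with a median log2 difference of -0.28. Among all genes tested, 23.1% were called higher and 14.2% lower. Neurofilament medium, Nefm, rose by 1.25 (limma adjusted p = 0.00077), from 0.186 to 0.688 FPKM in mESC to 1.78 to 2.78 FPKM in mEpiSC. Neurofilament heavy, Nefh, fell by 1.68 (limma adjusted p = 0.0033), from 1.21 to 5.62 FPKM to 0.178 to 0.349 FPKM. Nefm reached 1 FPKM in mEpiSC alone and Nefh in mESC alone, so each passed the filter only through the group where it was high and had to differ; their calls are no support for a direction of the list. Alpha-internexin, Ina, another neuronal filament protein, fell by 1.44 (limma adjusted p = 0.0019), from 16.1 to 18.1 FPKM to 3.66 to 9.49 FPKM. Peripherin, Prph, fell by 1.21 (limma adjusted p = 0.018). The muscle filament desmin, Des, had a difference of 0.51, neurofilament light, Nefl, 0.56 and synemin, Synm, -0.28, none of which passed. The call of Ina held in all 20 other settings, and that of Prph was lost in 5 of 19, among them without mESC 1 and without mEpiSC 2. Nefm and Nefh were called in all 14 other settings in which each was tested. Where the same filter applied, that too was no support, as both genes had to differ.

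Proteins that tie filaments to desmosomes and other structures were called in both directions. Of 11 of 16 listed genes that were tested, 2 were higher and 3 lower, with a median log2 difference of -0.10. Among all genes tested, 23.1% were called higher and 14.2% lower. The desmosomal cadherin Dsc2 rose by 1.51 (limma adjusted p = 0.0039), from 0.460 to 1.40 FPKM in mESC to 2.31 to 6.60 FPKM in mEpiSC, and its partner cadherin Dsg2 fell by 1.18 (limma adjusted p = 0.01), from 9.06 to 16.6 FPKM to 3.65 to 9.36 FPKM. Desmoplakin, Dsp, which anchors keratin filaments at desmosomes, rose by 1.17 (limma adjusted p = 0.036), from 1.24 to 3.72 FPKM to 3.51 to 13.9 FPKM. Replicate 4 was lowest for Dsp in both states, and replicates 1 to 3 lay at 3.14 to 3.72 FPKM in mESC and 6.65 to 13.9 FPKM in mEpiSC. The call of Dsp was lost in 12 of 20 other settings, both other scalings among them, and without any one of mESC 1, 3 and 4 or mEpiSC 1, 2 and 3. It held in 8, among them the replicate block, without mEpiSC 4 and with replicates 1 to 3 alone. Plakophilin 3, Pkp3, fell by 1.12 (limma adjusted p = 0.0083) and plakoglobin, Jup, by 0.61 (limma adjusted p = 0.012). Pkp3 lay at 1.30 to 2.31 FPKM in mESC, at 0.0615 to 0.0795 FPKM in mEpiSC 1 to 3 and at 1.19 FPKM in EpiSC9. Among mEpiSC only EpiSC9 reached 1 FPKM, so Pkp3 passed the filter on low values mainly through mESC. Dsc2 was called in every other setting in which it was tested (19), Dsg2 in 19 of 20, Jup in 18 of 20 and Pkp3 in 16 of 18.

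Of the proteins that bind the lamina at the inner nuclear membrane most did not pass the test. Of 15 of 17 listed genes that were tested, 1 was higher and 1 lower, with a median log2 difference of 0.04. Among all genes tested, 23.1% were called higher and 14.2% lower. Tor1aip1, which encodes the lamina-associated polypeptide LAP1, rose by 0.84 (limma adjusted p = 0.0073), from 3.31 to 4.67 FPKM in mESC to 5.53 to 10.2 FPKM in mEpiSC. Sun1, which links the lamina to the cytoskeleton across the envelope, fell by 0.49 (limma adjusted p = 0.0085), from 22.7 to 29.6 FPKM to 18.2 to 19.6 FPKM. Of the 5 lamin processing enzymes, all tested, Icmt was called higher and none lower. Icmt methylates the farnesylated end of lamins, and rose by 0.71 (limma adjusted p = 0.0017), from 8.31 to 10.3 FPKM to 14.9 to 17.2 FPKM. With the replicate block 2 of the lamina partners were called higher and 1 of the enzymes lower, beside 3150 higher and 2055 lower of all 11556 genes. Under median ratio scaling 3 of the lamina partners and 2 of the enzymes were called lower, beside 2199 of all 11556 genes. Icmt was called in 20 of 20 other settings, and Tor1aip1 and Sun1 in 19 of 20 each, lost with 1 mean per line.

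The genes most like each of 6 members were ranked by Pearson correlation of log2(FPKM + 1) over the 8 libraries, among 7682 genes with a mean of at least 5 FPKM. These correlations mix the difference between states with variation inside each state and are given as a description. Krt8 and Krt18 were each other's nearest gene (r = 0.994). After it, Krt8 was nearest to B4galt3 (0.988), Tmx3 (0.987), Txndc12 (0.975) and Fndc4 (0.974), and Krt18 to B4galt3 (0.983), Gprc5c (0.982), Tmx3 (0.981) and Fndc4 (0.98). Vim was nearest to Mgst1 (0.98), Snx13 (0.968), Igfbp2 (0.963), Hpcal1 (0.954) and Iffo2 (0.952), the last itself a gene of the intermediate filament family. For Nes they were Ift74 (0.987), Cbx5 (0.982), Exoc7 (0.981), Dock11 (0.98) and Sema6a (0.975). Lmna was nearest to Pros1 (0.911), Anxa1 (0.901), Ccl7 (0.859), Nid1 (0.859) and S100a4 (0.849), and S100a4 is one of the 15 fibroblast markers. Among the nearest to Lmnb1, which varied least, were Magohb (0.907), Setd3 (0.901), Dis3l (0.894) and Alg3 (0.885).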

How the data were processed

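Polyadenylated RNA of 8 libraries was prepared with an Illumina TruSeq kit, per the labels' protocols. The authors deposited 1 table per library, which gives FPKM per gene, its status and a 95% interval. Per the submitters' processing notes TopHat2 2.0.6, Cufflinks 2.0.2 and the mouse genome mm9 were used; the sources used here do not give annotation, options or strand, so reads of overlapping genes on opposite strands are not separable. Each table held 23699 entries; 248 symbols at several loci (712 entries) were left out, and 0 columns of per-sample values were unused. FPKM are not counts: values under 100 implied fragments came out whole (tolerance 0.05) for 80.2% to 81.1% of low genes, and depth was estimated from the deposited intervals.

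Samples were grouped by the labels. The state difference was fitted with limma 3.58.1 (R 4.3.3, with statmod 1.5.0; robust, with a variance trend) on log2(FPKM + 1) over 11556 genes, and lines in a fit with 1 mean per line. The procedure was tested on simulated data. Transcript lengths and shared 50-base windows came from GENCODE vM21 (another build); 88.9% of genes tested matched by name. Promoters came from RefSeq.

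Genes named were all 9 members, up to 4 called genes per related list with the largest change, the 5 genes most correlated with each of 6 members (not all of them are reported here), and cell type markers at 1 FPKM or more in any library. Jup, called with a smaller change than 4 genes of its list, and Des, Nefl and Synm, which were not called, were named beyond this rule. Other keratins, neighbouring genes and markers under 1 FPKM were named after their values were seen. The members and lists were chosen with earlier results of these data known.

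The replicate numbers name different lines in the 2 states. After subtracting each group's mean, libraries that share a number correlated across genes at 0.217, 0.153, 0.185 and 0.514. All lie above 0.1, the bound used for pairing, so the numbers count as a pairing by that bound, which no label states. Unlike numbers also passed it: mESC 2 correlated at 0.192 with mEpiSC 3, and mESC 3 at 0.208 with mEpiSC 2. Both exceed the values of mESC 2 and mESC 3 with their own number, so for numbers 2 and 3 the correlations do not single out the pairs. The main fit has no block, and the fit with the replicate block is an alternative.

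Alternatives were median ratio scaling, pseudocounts of 0.1 and 5, quantile normalization, a filter at a mean of 5 FPKM or none, plain variances with no trend, the replicate block, lines as random effects (correlation 0.47), 1 mean per line, a fibroblast marker covariate, replicates 1 to 3 alone, and leaving out each library.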

Additional observations from a re-analysis of the deposited data

Results flagged for a closer look

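Krt19 in mEpiSC held a library set apart from the others by Dixon's ratio, 1 of 18 groups of 4 libraries looked at (9 genes in 2 states). EpiSC9 stood at 173.6 FPKM and the other 3 libraries at 4.77 to 11.7 FPKM, a gap that took 0.959 of the group's range. The keratin levels of EpiSC9 were known when these genes were chosen, so this ratio is a description and no test.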

How the results depend on the processing

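Over 9 genes and up to 20 other settings, 162 values kept their side of the threshold, 10 lost the call (Nes in 9 settings, Lmnb2 in 1) and 6 gained it (Krt19). The call of Krt19 appeared with a pseudocount of 0.1 (2.91, adjusted p = 0.041) and in 5 settings named above. With the replicate block 5 of the 9 genes were called higher and 1 lower, and of all genes 5205 were called beside 4305; no call of the 9 genes other than that of Krt19 changed with the block. With 1 mean per line, 865 of all genes were called higher and 557 lower, and 0 of the 9 lower, on 5 values in place of 8. With the line as a random block 1046 of all genes were lower, and with a mean of at least 5 FPKM 1597 were higher among fewer genes tested. Without each library in turn, 3 to 5 of the 9 were higher, and 976 to 1945 of all genes were lower; the lowest counts were without mESC 3 (976) and mESC 1 (1031). The share of calls that were higher was 61.9%, and 51% and 49.8% under median ratio scaling and quantile normalization, which moved the median of all genes from 0.08 to -0.01 and -0.02. Line differences called 0 of the 5 genes in all other settings tried. The ratio of type II to type I keratins differed between states by -0.34 on the log2 scale, and by 0.10 without mEpiSC 4. Krt7 could not be tested with a mean of at least 5 FPKM or with replicates 1 to 3 alone.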
